A study of Mus musculus with 37 samples.

Results

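The nucleus accumbens of adult male C57BL/6J mice that had overexpressed the glucocorticoid receptor for their whole lifetime (NAcc lifetime, 7 arrays) was compared with that of control mice without the overexpression (NAcc control, 6 arrays). These 13 arrays were chosen by their titles from the 37 of the series. The series also holds dentate gyrus (DG) of the same animals, except lifetime animal 13, and a group that overexpressed the receptor in early life. The series title places the overexpression in the forebrain. The labels name neither the promoter nor the transgene system, and they do not say whether the controls carried any part of it. Both groups were undisturbed in the morning, and tissue was cut out of 12 µm coronal sections with a laser, 1 array per animal. The RNA went through a pair of amplification rounds before hybridization. The numbers in the titles (7 to 13 for lifetime, 14 to 19 for control) name animals, and array 8 means the array of lifetime animal 8. Early arrays 1 to 6 are given beside the comparison where they bear on it, and early array 5 is left out of their values because it stood far from every other accumbens array. All levels are deposited log2 signals, and all changes are lifetime minus control in log2 units.

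The glucocorticoid receptor, the product of Nr3c1, is a nuclear receptor that waits in the cytoplasm with heat shock protein chaperones, binds corticosterone, moves to the nucleus and raises or lowers transcription with coactivators and corepressors. The nucleus accumbens is the ventral striatum, where most neurons are GABAergic medium spiny neurons that receive dopamine and glutamate input, and glucocorticoids are known to act on its response to reward and stress. The arrays carried the identity of this region. Relative to each array's median, 19 of 22 measured markers shared by medium spiny neurons lay above every DG array of the lifetime and control animals, and 12 of 18 dentate granule and pyramidal cell markers lay below every one. Drd1, the D1 dopamine receptor gene, was at 9.55 to 10.36 in lifetime and 9.89 to 10.76 in control accumbens.

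A few arrays stood apart. Array 8 had the highest median of the lifetime group (6.27, the others 6.13 to 6.18), the narrowest interquartile range (2.20, the others 2.34 to 2.54) and the lowest mean correlation with the other arrays (0.981, the others 0.985 to 0.991). The control arrays had medians of 6.15 to 6.21, interquartile ranges of 2.30 to 2.37 and correlations of 0.987 to 0.991. The interquartile range averaged 2.39 ± 0.11 in lifetime and 2.33 ± 0.03 in control arrays (SD, n = 7 and 6, two-sided exact permutation p = 0.196). Without array 8 the lifetime mean was 2.42 ± 0.07, a difference of 0.093 from control (exact permutation p = 0.0108, 0.0325 adjusted over 3 array statistics), and the array medians differed by -0.029 (exact permutation p = 0.0325, adjusted 0.0487). Ttr, the transthyretin gene of the choroid plexus, was at 4.31 to 4.61 in all lifetime arrays, against 13.1 in control array 14 and 12.4 in control array 16. The other 4 control arrays had Ttr within the lifetime range. The mean level of 12 choroid plexus and ependymal markers relative to the array median was -0.91 to -0.80 in lifetime and -0.90 to 0.11 in control arrays. The counts of called features below are therefore also given without these arrays.

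Nr3c1 was higher in the lifetime arrays. Its lowest, median and highest signals were 7.33, 7.80 and 8.12 in lifetime and 7.25, 7.40 and 7.66 in control arrays. The lowest lifetime value was that of array 8, below 4 of the 6 control arrays, and the next lowest lifetime value, 7.61, was below the highest control value, so the groups overlapped with and without array 8. The means were 7.75 ± 0.24 and 7.40 ± 0.14 (SD, n = 7 and 6), a difference of +0.35 (two-sided exact permutation p = 0.0111). In the fit across all features with limma the difference had an SE of 0.10 and an adjusted p of 0.456. Without array 8 it was +0.42 (SE 0.09, limma adjusted p = 0.0409, exact permutation p = 0.00433). That limma call was lost in 13 of 25 alternative settings. Among these were 8 of the 12 that left out 1 further array, quantile normalization (+0.37, adjusted p = 0.0753), the fit without control arrays 14 and 16 (+0.44, adjusted p = 0.0861), and a covariate for the interquartile range (+0.37, adjusted p = 0.749) or the median of each array (+0.26, adjusted p = 0.542). In DG, where lifetime animal 13 has no array, the change was +0.25. The test of accumbens against DG change within animals gave a difference of +0.09 (SE 0.11, limma adjusted p = 0.696). The deposited table holds 1 Nr3c1 feature, and whether its probes read the transgene was not tested.

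Pcdh19 was the 1 gene that passed with all arrays. It encodes protocadherin 19, a calcium-dependent adhesion protein of neurons whose X-linked human gene is known from an epilepsy syndrome. It is represented by 2 features, each a RefSeq transcript, and whether they share probes was not tested. The feature NM_001105246 was at 8.22, 8.46 and 8.92 (lowest, median and highest) in lifetime and at 7.31, 7.39 and 7.48 in control arrays. NM_001105245 was at 8.10, 8.39 and 8.87 in lifetime and at 7.30, 7.37 and 7.48 in control arrays. Every lifetime array, array 8 with 8.23 and 8.19 included, lay above every control array on both. The control values spanned under 0.2 log2, and the lifetime values were spread more widely. The changes were +1.16 (SE 0.11, limma adjusted p = 0.000157) and +1.08 (SE 0.11, adjusted p = 0.000190), higher in 7 of 7 arrays. They made up all of the 2 features called among 11301 tested (0.0177% of them; 3 features without control arrays 14 and 16), while 960 features (8.49%) had an unadjusted p under 0.05, 5.52% of those tested higher and 2.97% lower. The groups did not overlap for 0.195% of the tested features above control and 0.0708% below, 0.265% in all.

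**Figure D1:**
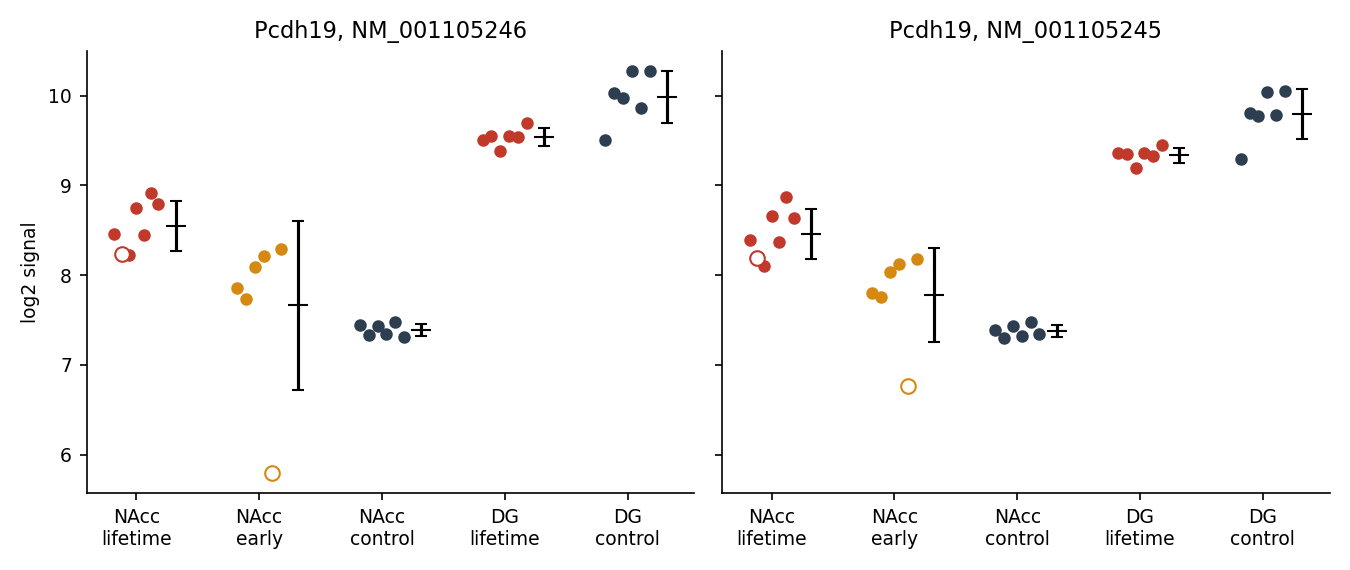
Log2 signal of both Pcdh19 features in each array, by region and group, with the mean and SD beside the points (n = 7 NAcc lifetime, 6 in each other group). Open circles are NAcc lifetime array 8 and NAcc early array 5. All lifetime accumbens arrays lie above all control accumbens arrays, while in DG the lifetime arrays lie at the lower end of the control range or below it.

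Pcdh19 differed in the opposite direction in DG. There its NM_001105245 signal was 9.19, 9.36 and 9.45 in lifetime and 9.30, 9.79 and 10.06 in control arrays, so DG control levels were the highest of the 4 groups and accumbens control levels the lowest. The DG groups overlapped through 1 control array. In the 6 lifetime and 6 control animals with both regions, the accumbens change minus the DG change was +1.56 (SE 0.15, adjusted p = 4.78e-05) for NM_001105246 and +1.51 (SE 0.14, adjusted p = 4.78e-05) for NM_001105245. In early accumbens, which shares its control arrays with this comparison, 5 arrays had NM_001105246 at 7.74 to 8.30 and NM_001105245 at 7.75 to 8.17. The early mean differences from control were +0.65 and +0.60.

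Both Pcdh19 calls were kept without control arrays 14 and 16 (+1.18 and +1.10, adjusted p = 0.00568 and 0.00640) and with the interquartile range as a covariate (+1.06 and +1.0, adjusted p = 0.000295 and 0.000594). They were lost when the early group, array 5 included, shared the variance of the fit (adjusted p = 0.880 and 0.112, with the same changes). Without arrays 5 and 8 that fit gave adjusted p = 9.92e-06 for each.

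The gene lies on chromosome X. Its promoter is shown because it is the gene on which the comparison turns: the 250 bases before its start, from RefSeq on GRCm38.p6, at chrX:133688994-133689243 on the minus strand. The receptor's binding motif was searched as the half-site AGAACA, read as TGTTCT on the other strand, and as the palindrome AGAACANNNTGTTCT, which contains both. Neither occurs in these 250 bases, which says only that these letters are not in this window.
Pcdh19: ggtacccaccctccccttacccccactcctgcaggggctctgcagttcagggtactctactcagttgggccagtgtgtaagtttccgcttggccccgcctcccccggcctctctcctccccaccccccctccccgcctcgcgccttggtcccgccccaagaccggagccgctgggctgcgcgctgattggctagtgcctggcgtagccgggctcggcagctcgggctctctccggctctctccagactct

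Without array 8, 81 features passed (0.717% of 11301, 73 genes), 74 higher (0.655%) and 7 lower (0.0619%) in lifetime accumbens, and 2366 (20.9%) had an unadjusted p under 0.05, 13% of those tested higher and 7.91% lower. The 74 rises had a median size of 0.48 and the 7 falls one of -0.36. Of the 81 features, 73 had an unadjusted p under 0.05 with array 8 in the fit as well, and the median change of the 74 was then +0.40. That fit also holds every array on which the 81 were chosen. Without array 8 the groups did not overlap for 60 of the 74 and for 7 of the 7. Among all tested features this held for 163 above control (1.44%) and 75 below (0.664%), 2.11% together. The 81 were chosen for small p on these same arrays, so such separation largely follows from the choice. The count fell to 6 without control arrays 14 and 16, 5 of them among the 81, and to 2, both Pcdh19, with the interquartile range as a covariate. Under that covariate all 81 features kept their direction and an unadjusted p under 0.05, but they had been chosen on these same arrays.

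Array 8, which had no part in choosing the 74, did not share their rise. It lay above the control mean for 20 of the 74, against 54.2% of all tested features, and below every other lifetime array for 69. The 74 were chosen for high values in the other 6 lifetime arrays, which by itself favours array 8 as the lowest. The median of array 8 over the 74 was 0.20 below the control mean. The other 6 lifetime arrays were 0.39 to 0.63 above it, a height that the choice of features set. In early arrays, which had no part in the choice either but share the controls, the medians were +0.03 to +0.36 without array 5 and -1.33 in array 5. Over all tested features the median of array 8 was 0.02 above the control mean.

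**Figure D2:**
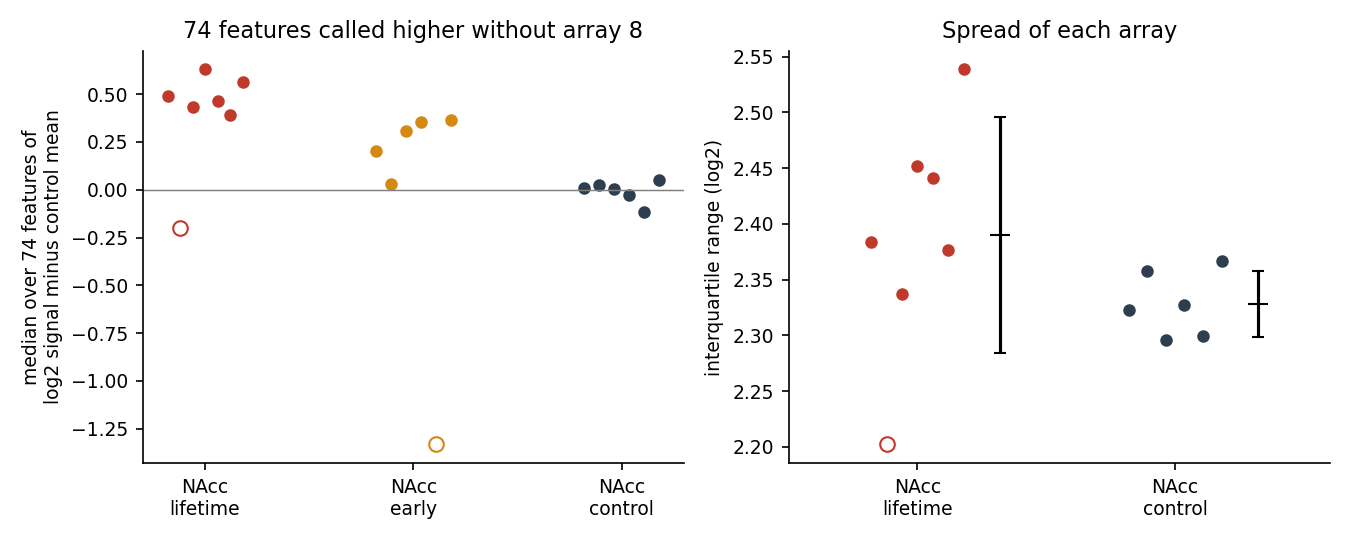
Left, the median over the 74 features called higher without array 8 of the log2 signal minus the control mean, 1 point per accumbens array. Right, the interquartile range of each array's log2 signals with mean and SD (n = 7 lifetime, 6 control). Open circles are lifetime array 8 and early array 5. Array 8 is the only lifetime array below 0 on the left and has the narrowest range on the right.

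Of the 81 features, 10 passed also without each further array in turn. The genes among them were Pcdh19, Dync1i1, Ssbp2, Ptprz1, Zfp810, and the zinc finger genes Zfp74 and Zfp941, both named after their values were seen. Dync1i1, which encodes an intermediate chain of the motor cytoplasmic dynein, was at 10.56, 10.96 and 11.09 in lifetime and at 10.29, 10.48 and 10.58 in control arrays. Only array 8 was within the control range. The change was +0.44 with all arrays (SE 0.08, limma adjusted p = 0.215) and +0.50 without array 8 (SE 0.07, adjusted p = 0.00831). Ssbp2, a single-stranded DNA binding protein that works with LIM-domain transcription factor complexes, was at 9.16, 9.51 and 9.95 in lifetime and at 8.85, 8.93 and 9.10 in control arrays. Here array 8, with 9.16, also lay above every control array, and the change was +0.61 (SE 0.11, adjusted p = 0.143), or +0.68 without array 8 (SE 0.10, adjusted p = 0.00949). Sox11, a transcription factor of immature neurons, was at 7.74, 7.84 and 8.40 in lifetime and at 7.11, 7.33 and 7.61 in control arrays. No lifetime array overlapped the controls, and the change was +0.63 (SE 0.11, adjusted p = 0.143), or +0.66 without array 8 (SE 0.11, adjusted p = 0.0217). Sox11 is not among the features that passed without each further array: it passed in 10 of those 12 fits.

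For several of the larger rises array 8 lay at or below the control values. Vstm2a, an immunoglobulin-domain gene of the brain, was at 7.15, 8.68 and 9.15 in lifetime and at 7.55, 7.85 and 8.47 in control arrays. Array 8 was the lowest of all 13 arrays, and the change was +0.69 (SE 0.26, limma adjusted p = 0.530), or +0.93 without it (SE 0.15, adjusted p = 0.0178). It was also the lowest for Mir100hg, the host RNA of a microRNA cluster, which was at 6.98, 8.17 and 8.81 in lifetime and 7.23, 7.47 and 7.63 in control arrays (+0.65, or +0.84 without array 8, adjusted p = 0.0220). Rprm, a cell cycle inhibitor and p53 target, had its 2 lowest lifetime values, 6.81 and 6.93, within the control range of 6.45 to 7.19, and its highest was 8.25. Its change was +0.86, or +0.97 without array 8 (SE 0.20, adjusted p = 0.0388), and it passed in 3 of the 12 fits that left out 1 further array. Smc5, a subunit of a DNA repair complex of the SMC family, was at 7.98, 8.75 and 8.99 in lifetime and at 7.77, 8.05 and 8.47 in control arrays. Without array 8 it was above every control array, with a change of +0.70 (SE 0.11, adjusted p = 0.0190). Nexmif (+0.66), Zfp810 (+0.66), Syncrip, an RNA-binding protein (+0.70), Tm2d1 (+0.70), Galnt18, a glycosylation enzyme (+0.57), and Nt5dc3 (+0.43) also rose without array 8, with adjusted p between 0.0153 and 0.0344. Of the 81 features, 4 had a mean below the filter level in 1 group and entered the test only through the other, Galnt18 and Lor (named after its values were seen) through the lifetime arrays and Bank1 and Acr, below, through the control arrays.

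The 7 falls without array 8 were smaller, -0.53 to -0.28. Bank1, a scaffold of B cell receptor signalling, was at 5.16, 5.62 and 5.70 in lifetime and at 5.76, 6.04 and 6.29 in control arrays, with no overlap and array 8 at the median of its group. Its change was -0.52 (SE 0.11, limma adjusted p = 0.240) with all arrays and -0.53 (SE 0.11, adjusted p = 0.0424) without array 8. All lifetime values were below the filter of 5.74 and all control values above it. Pde1b, the calcium-activated phosphodiesterase of medium spiny neurons, was at 7.52, 7.75 and 8.02 in lifetime and at 7.97, 8.04 and 8.33 in control arrays. Array 8 alone reached the control range, and without it the change was -0.37 (SE 0.08, adjusted p = 0.0461). Pde1b passed in 2 of the 12 fits that left out 1 further array. Ager, the receptor of advanced glycation end products (-0.38), Rtkn, a binder of small GTPases (-0.36), Acr, the sperm protease acrosin (-0.34), and Tfe3, a transcription factor of lysosome genes (-0.28), fell with adjusted p between 0.0344 and 0.0465. For these 4 genes array 8 lay above the control mean. The remaining fall had no gene name.

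Of the receptor's own pathway, 18 genes for corticosteroid receptors, chaperones and cofactors were tested, and 3 rose and none fell without array 8. One of the 3 is Nr3c1 itself, the gene whose overexpression defines the group. Their median change was +0.16, against +0.01 over all 11301 features, of which 0.655% rose, and 15 of the 18 were above 0, against 53.4% of all. Ncor1, a corepressor of nuclear receptors, was at 9.98, 10.24 and 10.46 in lifetime and at 9.82, 9.97 and 10.11 in control arrays. Only array 8 was within the control range, and the change was +0.27 (SE 0.08, limma adjusted p = 0.454), or +0.32 without array 8 (SE 0.07, adjusted p = 0.0465). Nrip1, a corepressor that nuclear receptors recruit when bound to hormone, was at 7.96, 8.61 and 8.83 in lifetime and at 7.88, 8.19 and 8.44 in control arrays. These groups overlapped at 1 lifetime array besides array 8, and the change was +0.34 (SE 0.12, adjusted p = 0.523), or +0.44 without array 8 (SE 0.09, adjusted p = 0.0464). Hsp90aa1, a chaperone that holds the unbound receptor and was counted with the heat shock genes, did not pass (+0.35, or +0.42 without array 8, adjusted p = 0.0814).

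**Figure D3:**
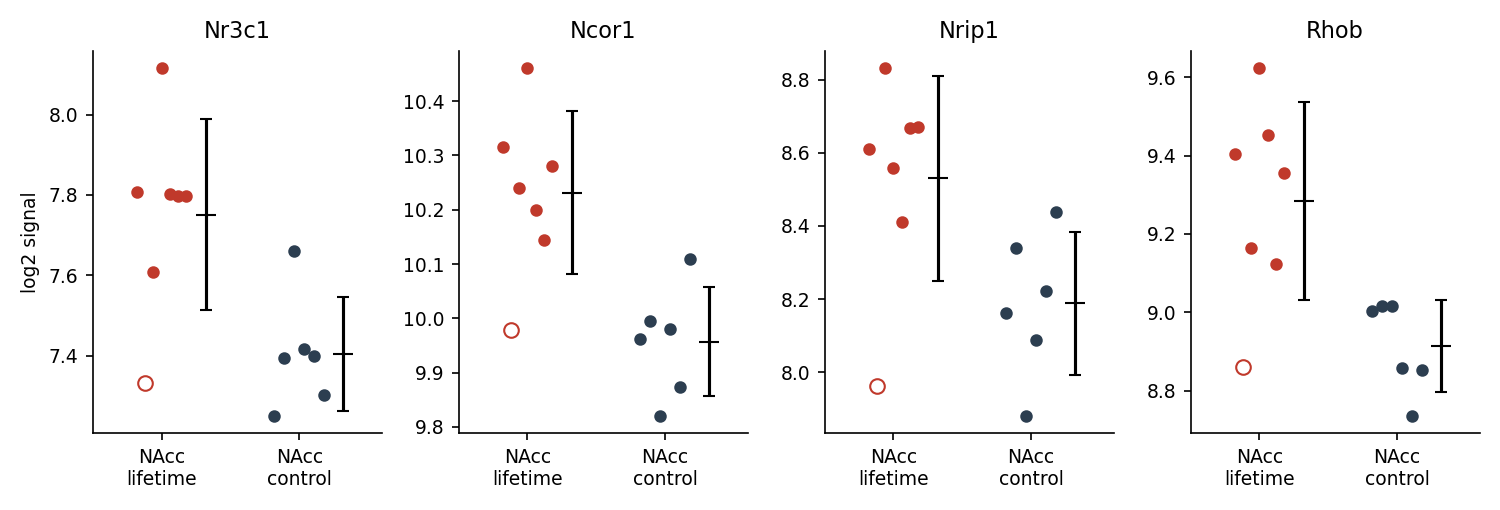
Log2 signal of Nr3c1, Ncor1, Nrip1 and Rhob in each accumbens array with mean and SD (n = 7 lifetime, 6 control). The open circle is array 8, which is the lowest lifetime array for each of the 4 genes and lies inside the control range.

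Of 26 genes known to be induced by glucocorticoids, 1 rose without array 8 and none with all arrays, with a median change of +0.02. The riser was Rhob, a small GTPase induced early by many stimuli. It was at 8.86, 9.35 and 9.62 in lifetime and at 8.74, 8.93 and 9.02 in control arrays, with only array 8 in the control range. The change was +0.37 (SE 0.11, limma adjusted p = 0.456), or +0.44 without array 8 (SE 0.09, adjusted p = 0.0344). Rhob passed in 4 of the 12 fits that left out 1 further array. Several classical targets had changes of either sign and none of them passed, and these were named after their values were seen. Without array 8, Ddit4, an mTOR inhibitor, was at +0.53, Sgk1, a kinase that raises ion transport, at +0.44 and Fkbp5, a cochaperone that dampens the receptor, at +0.17. Tsc22d3, the leucine zipper GILZ, was at +0.09, and the clock gene Per1 at -0.15. Of the 26, 5 higher and 1 lower had an unadjusted p under 0.05, against 13% and 7.91% of all tested features.

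Crh, the precursor of corticotropin-releasing hormone, had one of the largest differences and did not pass. It was at 8.03, 8.93 and 10.21 in lifetime and at 5.82, 7.35 and 8.74 in control arrays. All 7 lifetime arrays were above the control mean, but array 8 and animal 9 lay below the highest control value, and the controls were widely spread. The change was +1.82 (SE 0.45, limma adjusted p = 0.385), or +2.01 without array 8 (SE 0.45, adjusted p = 0.0556). In DG it was +0.06, with a difference between the regions of +1.59 (SE 0.64, adjusted p = 0.187), and in the 5 early arrays +1.33. None of the 11 tested stress peptide genes was called, and their median was +0.02 without array 8. Npy1r, a neuropeptide Y receptor, was at +0.27 (adjusted p = 0.153).

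Of 21 tested markers shared by medium spiny neurons, only Pde1b fell without array 8, and 18 were below 0, with a median of -0.22. Over all features 46.6% were below 0 and the median was +0.01. With all arrays none was called, 19 were below 0 and the median was -0.14. Without array 8, 7 of the 21 had an unadjusted p under 0.05 and a lower mean, as did 7.91% of all features. Named after their values were seen, they included Scn4b, a sodium channel beta subunit (-0.66), Rasd2, a striatal Ras-like GTPase (-0.48), Rgs9, a brake on dopamine receptor signalling (-0.33), and Ppp1r1b, the phosphoprotein DARPP-32 (-0.27). Their adjusted p did not pass. The mean level of the 22 measured markers above the array median was 2.54 to 2.85 in lifetime and 2.70 to 3.24 in control arrays, so the ranges overlapped. In bulk tissue such as this, fewer cells of a type and less RNA per cell cannot be told apart.

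Markers that separate both kinds of medium spiny neuron gave no call. Of 6 indirect-pathway markers the median was -0.09 without array 8, with Adora2a, an adenosine receptor gene, at -0.18 (adjusted p = 0.228). Of 5 direct-pathway markers the median was +0.01, and Isl1, a transcription factor of these neurons, was at +0.27 (adjusted p = 0.258). Among 29 dopamine and cAMP signalling genes, Pde1b was the only call, 12 were above 0 and the median was -0.08. Plxdc1, a transmembrane receptor on the indirect-pathway list, was at -0.40 (adjusted p = 0.0731).

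Of 18 GABA receptor and transporter genes 1, Gphn, rose without array 8. Their median was +0.21, and 16 were above 0, against 53.4% of all features. Gphn encodes gephyrin, the scaffold that anchors GABA receptors at inhibitory synapses. It was at 9.31, 9.56 and 9.74 in lifetime and at 8.85, 9.06 and 9.35 in control arrays. Array 8, with 9.43, was above every control array, and 1 other lifetime array overlapped the highest control. The change was +0.45 (SE 0.09, limma adjusted p = 0.236), or +0.47 without array 8 (SE 0.09, adjusted p = 0.0344), and it was +0.41 in DG. Among receptor subunits named after their values were seen, Gabrg1 (+0.73) and Gabra5 (+0.60) had unadjusted p under 0.05 without array 8 and did not pass. Of 15 glutamate receptor genes 8 were above 0 (median +0.03), and Gria2, the AMPA receptor subunit that blocks calcium entry, rose by 0.35 without array 8 (SE 0.08, adjusted p = 0.0465). Its signals were 11.10, 11.62 and 11.75 in lifetime and 11.10, 11.26 and 11.51 in control arrays, with array 8 the lowest of all 13. Gria2 passed in 3 of the 12 fits that left out 1 further array. No call was made among 29 synaptic vesicle, 19 postsynaptic scaffold, 32 potassium channel or 23 sodium and calcium channel genes. Nrxn3, a presynaptic adhesion protein (+0.26, adjusted p = 0.0786), and Cacna2d2, a calcium channel subunit (+0.37, adjusted p = 0.0807), came nearest among those named.

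Of 28 axon guidance and adhesion genes none was called, 21 were above 0 and the median was +0.10 without array 8. Robo1, the receptor of the repellent Slit, was at 8.27, 8.89 and 9.86 in lifetime and at 8.13, 8.33 and 8.68 in control arrays (+0.74 without array 8, adjusted p = 0.0628). Unc5d, a netrin receptor, was at 8.11, 8.74 and 9.15 in lifetime and at 7.33, 8.13 and 8.47 in control arrays (+0.69, adjusted p = 0.0667). Both groups overlapped for each gene. Smarca2, the BRM ATPase of chromatin remodelling, was the 1 call among 34 chromatin genes (+0.60 without array 8, SE 0.11, adjusted p = 0.0285, median of the list +0.08). With all arrays its change was +0.43 (SE 0.19, limma adjusted p = 0.556). Array 8, at 9.21, lay below every control array (9.62 to 9.93). Splicing factor genes had no call. Without array 8, 26 of 30 were above 0 (median +0.13) and 10 were higher at an unadjusted p under 0.05, against 53.4% and 13% of all features. With all arrays 24 were above 0 (median +0.10) and 3 were higher at that unadjusted p, against 5.52% of all features. Hnrnpd, a regulator of messenger RNA decay, was at +0.36 without array 8 (adjusted p = 0.0628). Among 66 oxidative phosphorylation, 23 ribosomal protein, 27 proteasome, 24 heat shock, 14 immediate early and 17 circadian genes none was called, and their medians ran from -0.08 to +0.09. Egr1, an activity-induced transcription factor, was at -0.24 (adjusted p = 0.266), Nr1d2, a repressor of the clock, at +0.29 (adjusted p = 0.117) and Rpl37a, a ribosomal protein, at -0.39 (adjusted p = 0.0771).

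**Figure D4:**
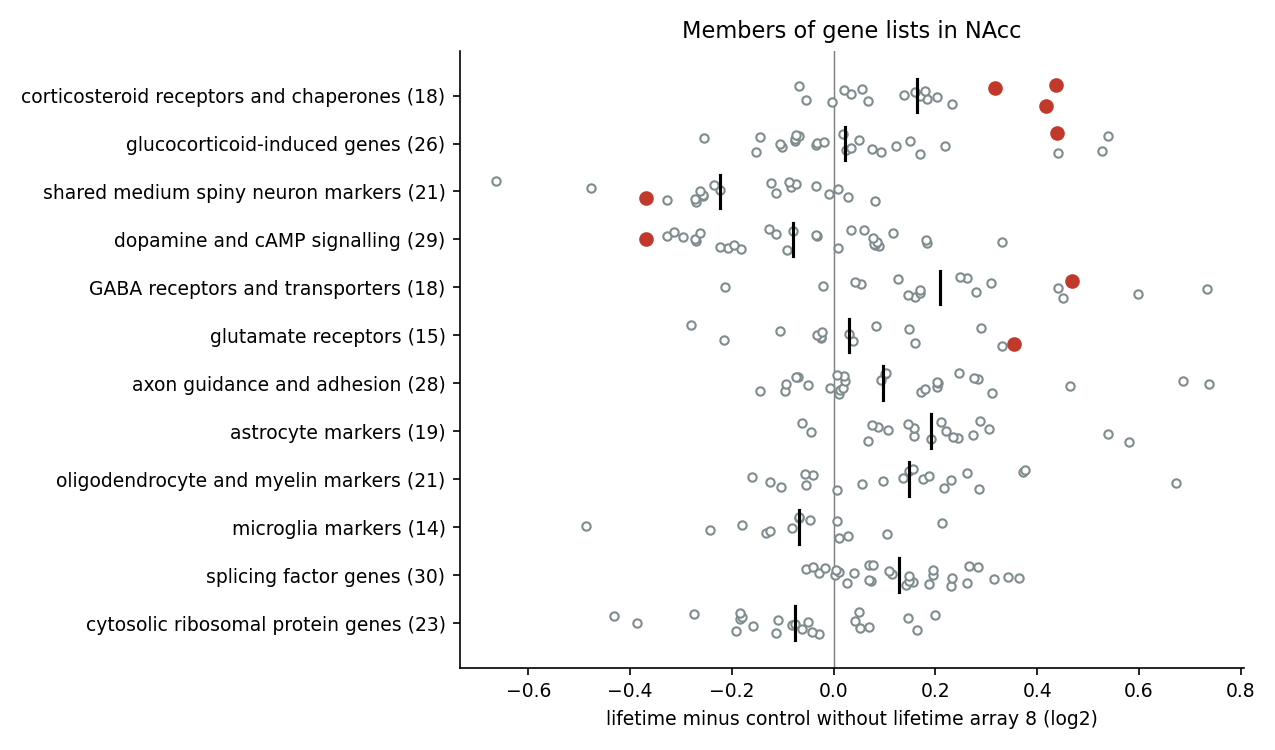
Change of each tested member of 12 gene lists in the accumbens, lifetime minus control in log2 without array 8, with the number tested in brackets. Filled points passed the threshold, open points did not, and the bar is the median of the list. The medians run from -0.22 for shared medium spiny neuron markers to +0.21 for GABA receptors and transporters. The corticosteroid list holds 3 filled points, 1 of them the overexpressed Nr3c1 itself, where no other list holds over 1. Ncor1 and Nrip1, the others, passed in 3 and 2 of the 12 fits that left out 1 further array.

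Markers of other cells were measured beside these groups, and their part in the results was not tested. Of 19 astrocyte markers none was called, but 17 were above 0 without array 8, with a median of +0.19, and 8 were higher at an unadjusted p under 0.05, against 53.4% and 13% of all features. Their mean level above the array median was 2.03 to 2.59 in lifetime and 2.02 to 2.24 in control arrays, and array 8 was the lowest lifetime array. The lowest of the other lifetime arrays was at 2.22, inside the control range. Acsbg1, an acyl-CoA synthetase, was at 7.79, 8.01 and 8.29 in lifetime and at 7.54, 7.77 and 7.87 in control arrays (+0.31 without array 8, adjusted p = 0.0771). Slc1a2, the main glutamate transporter of astrocytes, was at +0.24 (adjusted p = 0.0807). Of 21 oligodendrocyte and myelin markers 15 were above 0 (median +0.15), and array 8 had the lowest mean level of the group, 1.48 against 1.90 to 2.58 in the other lifetime arrays and 1.77 to 2.18 in control arrays. Microglia markers had a median of -0.07 over 14 genes, with Tyrobp, a signalling adaptor, at -0.49 (adjusted p = 0.0779). Ptprz1, a receptor phosphatase on the oligodendrocyte precursor list, was the 1 call among 6 (+0.44 without array 8, SE 0.07, adjusted p = 0.0153), and Sox11 the 1 call among 10 immature neuron genes. Clic6, a chloride channel family gene on the choroid plexus list, rose without array 8 (+0.48, SE 0.09, adjusted p = 0.0344). It was at 7.40 to 7.84 in lifetime and 6.82 to 7.35 in control arrays, with control arrays 14 and 16 at 7.30 and 7.0. Ttr, which stood out in those 2 arrays, did not do so in any lifetime array. Interneuron (13), endothelial and pericyte (12), cholinergic (4) and meningeal (8) markers had no call.

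To see which changes differed between regions, the accumbens minus DG value was compared between 6 lifetime and 6 control animals, and 235 of 11301 features passed (2.08%), 64 higher (0.566%) and 171 lower (1.51%). At an unadjusted p under 0.05 there were 19.7%, 9.22% higher and 10.5% lower. Leaving out 1 animal gave counts between 87 (without lifetime animal 7) and 1084 (without lifetime animal 10), with 115 without animal 8, 122 without control animal 14 and 126 without control animal 16. For 224 of them the DG change was the larger in size, and for 11 the accumbens change was. Their median size of change was 0.10 in accumbens and 0.61 in DG, and only 4 of the 235 had an accumbens change over 0.5. Over all tested features the median size was 0.07 in accumbens and 0.15 in DG, so DG changes were the larger there as well. Blnk, an adaptor protein of B lymphocytes, was at 5.63, 5.98 and 6.42 in lifetime and at 5.78, 5.96 and 6.11 in control accumbens. In DG it was at 10.76, 11.26 and 11.46 in lifetime and at 8.35, 8.56 and 9.05 in control arrays. Its accumbens minus DG change was -2.47 (SE 0.15, limma adjusted p = 5.40e-07). Blnk averaged 6.01 in lifetime and 5.96 in control accumbens, below the filter of the region test (6.06), which it passed through DG. Kcnk2, a potassium leak channel, was well expressed in accumbens, at 10.12, 10.37 and 10.65 in lifetime and 10.11, 10.25 and 10.78 in control arrays, with full overlap, and its difference of -1.48 (SE 0.18, adjusted p = 0.000848) came with a DG change of +1.56.

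Genes of activin signalling were among them. Inhba, the activin A subunit, had a difference of -1.69 (SE 0.12, adjusted p = 1.41e-06) with an accumbens change of -0.16 in these animals, and Fst, its secreted antagonist follistatin, one of -1.21 (SE 0.16, adjusted p = 0.00131). Fst was at 5.36 to 5.64 in lifetime and 5.38 to 5.64 in control accumbens. Tbr1, a cortical transcription factor (-2.22), and Car4, a carbonic anhydrase (-2.07), were at 4.39 to 5.48 in all these arrays. All 3 genes lay below the accumbens filter and entered the test only through DG, so their values describe DG and show no accumbens response to compare. The same holds for the means of 29 of the 235 features at the accumbens filter of 5.74. The means of Blnk lay above that filter and below the region filter of 6.06. Features below the region filter in accumbens were not counted. In the other direction, Spata13, a guanine nucleotide exchange factor (+1.10, adjusted p = 0.000861), and Doc2b, a calcium sensor of vesicle release (+1.02, adjusted p = 0.00131), had accumbens changes of +0.16 and -0.07 and fell in DG by 0.93 and 1.10. Of the 81 features called in accumbens without array 8, 79 were tested here and 5 were called, against 2.08% of all features, but they had been chosen on accumbens values that enter this difference. They were both Pcdh19 features, Zfp810, Clic6 and Igsf3, the last named after its value was seen. Zfp810, a zinc finger gene, had a difference of +0.65 (SE 0.14, adjusted p = 0.0329) and Clic6 one of +0.69 (SE 0.14, adjusted p = 0.0179). Clic6 averaged 5.60 in lifetime and 5.85 in control DG, below the region filter of 6.06, which it passed through accumbens. Igsf3, an immunoglobulin superfamily gene, ran the other way, with a difference of -0.84 and changes of +0.45 in accumbens and +1.29 in DG.

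**Figure D5:**
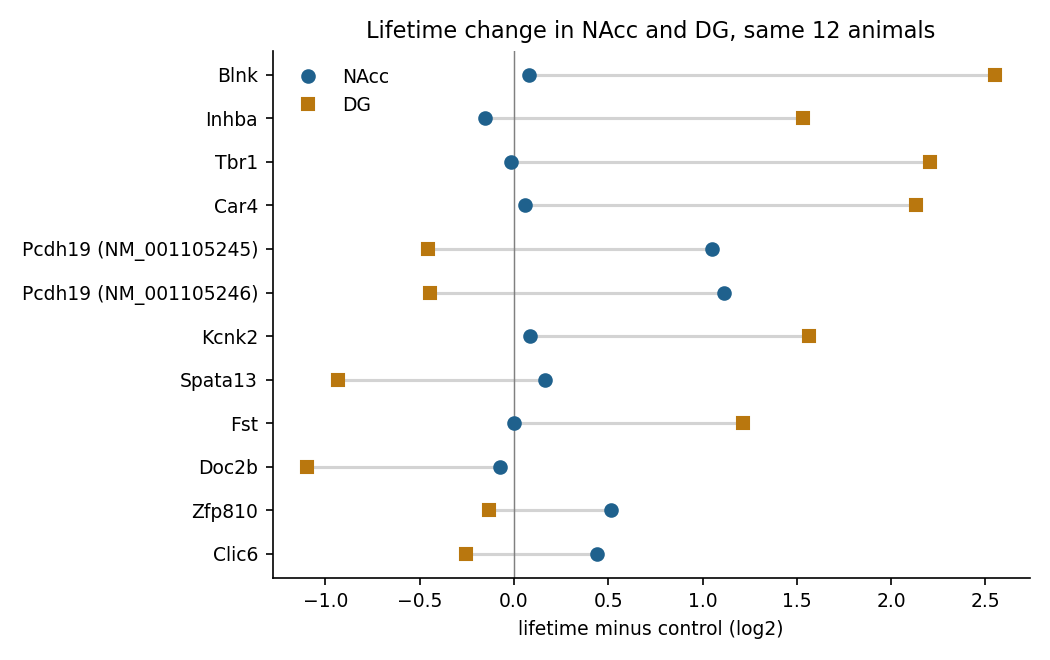
Change of 12 features in accumbens (circles) and DG (squares), lifetime minus control in log2, in the 6 lifetime and 6 control animals with both regions. The 10 features with the smallest adjusted p come first from the top, then Zfp810 and Clic6. For Pcdh19, Zfp810 and Clic6 the accumbens change is above 0 and the DG change below it. For the other 8 genes the accumbens change lies within 0.2 of 0. Tbr1, Car4 and Fst lie below the accumbens filter. The means of Blnk in accumbens and of Clic6 in DG lie below the filter of the region test (6.06).

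Promoters of the called genes were set beside those of all genes. RefSeq promoters on GRCm38.p6 were found for 60 of the 73 called genes. In the 250 bases before the start, 8 of the 60 (13.3%) held the half-site on either strand, against 18.2% of 27025 genes in the table, and none held the palindrome, against 0.0111% of all. Among the 8 were Ncor1, of the receptor's cofactors, and Smc5, of the largest rises. Both are shown for that reason, with the half-site in capitals, at chr11:62438516-62438765 and chr19:23272600-23272849, each on the minus strand. Ncor1 has 2 starts in the table, and the one with the motif is printed.
Ncor1: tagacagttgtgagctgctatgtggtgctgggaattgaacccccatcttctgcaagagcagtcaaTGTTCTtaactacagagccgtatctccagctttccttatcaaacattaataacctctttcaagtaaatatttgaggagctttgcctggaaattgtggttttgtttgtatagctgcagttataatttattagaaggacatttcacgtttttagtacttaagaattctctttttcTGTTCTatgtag
Smc5: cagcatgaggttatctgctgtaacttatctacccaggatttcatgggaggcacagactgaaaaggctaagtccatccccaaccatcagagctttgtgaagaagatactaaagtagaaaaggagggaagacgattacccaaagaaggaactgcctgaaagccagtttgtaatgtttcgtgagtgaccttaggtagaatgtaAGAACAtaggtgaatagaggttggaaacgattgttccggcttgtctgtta
Ncor1 holds the half-site at 2 positions and Smc5 at 1, while the Pcdh19 window printed above holds none. Such a match describes the letters and does not show a bound site.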

How the data were processed

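The deposited values are log2 expression values that the authors made with RMA, per the submitters' processing notes, from which no version is given. Each stands for a RefSeq accession. The probe grouping is not given in the sources used here. Of 24142 accessions, 5307 repeated another's values and were counted once, leaving 18835 features, of which 17260 carried 1 symbol (16489 genes), 29 several and 1546 none, by a RefSeq table of GRCm38.p6. Depth does not apply to arrays: their number limits the precision.

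The 7 lifetime and 6 control accumbens arrays were fitted alone with limma 3.58.1 in R 4.3.3, with all arrays and without array 8, on features above the 40th percentile of the mean (5.74 and 5.73). That left 11301 features. Tests were two-sided with Benjamini-Hochberg adjustment over them and a threshold of 0.05. "Called", "rose" and "fell" refer to it. Nr3c1 and the array statistics were also tested by exact permutation (1716 regroupings, 924 without array 8). Regions were compared on accumbens minus DG values per animal (filter 6.06), since both areas were dissected from every animal, per the labels. Lifetime animal 13 has no DG array in the series and was left out of that comparison. The script was tested on simulated data. Whether animals shared litters or hybridization batches is not given in the sources used here.

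A gene with several features counts in a list by the feature of highest mean. The rule for naming genes took Nr3c1, up to 12 called features in each direction by size for either fit, or else the 10 smallest p, up to 4 called or 2 other members of each of 38 lists, and the 10 smallest p of the region difference. Not every gene that it names is reported here. The members and lists were chosen with earlier results of these data known. The alternatives changed the filter, normalization, variance model, weights, groups in the fit, covariates, feature choice and threshold, or left out arrays. Those for the fit without array 8 were added after seeing the data. Sequences are from RefSeq.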

Additional observations from a re-analysis of the deposited data

Results flagged for a closer look

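A single array stood apart from the rest of its group in 19 of 186 groups of values examined (gap to the nearest array over the whole range, above 0.568 for 7 arrays or 0.625 for 6). Chance alone flags about 1 group in 20 where the choice of values does not depend on the arrays. Some of the genes were named because they passed only without array 8, a choice that makes array 8 likelier to stand apart. Acr, Gria2, Smarca2, Tfe3, Tm2d1 and Vstm2a are such genes. Hnrnpd, Kcnh7 and Nr1d2 were not called, but were named from their lists by a small p in the fit without array 8. The flags of all these genes are therefore no separate evidence about array 8. Array 8 accounted for 10 of the 19. It was the highest lifetime array for its own median (0.666), and for Acr (0.652), Kcnh7 (0.584) and Tfe3 (0.677). It was the lowest for Gria2 (0.700), Hnrnpd (0.678), Nr1d2 (0.687), Smarca2 (0.569), Tm2d1 (0.652) and Vstm2a (0.688). Lifetime array 13 was the highest for Lhx8 (0.606), Psmb7 (0.577) and Psmd6 (0.612), and lifetime array 9 the lowest for Syp (0.704). In the control group, array 17 was the highest for Htr5a (0.631), array 18 for Kcnh7 (0.699) and array 19 for Pde1b (0.641), while array 16 was the lowest for Mgll (0.709) and array 19 for Unc5d (0.625).

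The lifetime change differed between accumbens and DG by the limma test within animals for 12 named genes. The accumbens minus DG change was -2.47 for Blnk, -1.69 for Inhba, -2.22 for Tbr1, -2.07 for Car4, -1.48 for Kcnk2, -1.21 for Fst and -0.60 for Rpl37a. Tbr1, Car4 and Fst were below the accumbens filter, so theirs show no accumbens response. The accumbens means of Blnk and the DG means of Clic6 were below the region filter of 6.06. The accumbens minus DG change was +1.51 and +1.56 for the features of Pcdh19, +1.10 for Spata13, +1.02 for Doc2b, +0.69 for Clic6 and +0.65 for Zfp810.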

How the results depend on the processing

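The count of 2 called features with all arrays was 124 with array weights, 0 with 3 groups in the fit (415 features at an unadjusted p under 0.05 in limma) and 1 with 1 value per gene, and leaving out each array in turn gave 2 to 81, the 81 without lifetime array 8. Without array 8, the 81 became 34 after quantile normalization, 130 with arrays centred on their median, 337 with array weights, 0 with 3 groups in the fit (722 features at an unadjusted p under 0.05 in limma), or 295 with 3 groups and no early array 5. With the interquartile range or the array median as a covariate 2 were called, without control arrays 14 and 16 together 6, and at an adjusted p of 0.10 587. Leaving out each further array gave 12 (without lifetime array 10) to 229 (without lifetime array 9), and each of them but lifetime array 12 moved the count by over 1.5 times. In the region difference, 235 became 701 at an adjusted p of 0.10 and 87 (without lifetime animal 7) to 1084 (without lifetime animal 10) on leaving out each animal (over 1.5 times for all but control animals 18 and 19), and 177 with no replicate block. The correlation of deviations in the 12 pairs of regions was -0.14 to 0.36, and the pairing comes from the design. Lifetime and control accumbens share no animal numbers, so the comparison of those groups could not itself be paired. Nr3c1 stayed between +0.29 and +0.42 on leaving out each array, all below p = 0.05 by exact permutation. Without lifetime array 8 the array median difference was -0.029 and the interquartile range difference 0.093, both then past the threshold, and the mean correlation difference turned to +0.0002. Named genes that turned sign, none of them called in accumbens, were Kcnk2 (-0.0017 after quantile normalization) and, on leaving out single arrays, Blnk (-0.017 to 0.115), Sfxn1 (-0.139 to 0.018) and Vtn (-0.064 to 0.032). With the interquartile range as a covariate Cldn11 (-0.0078), Htr5a (0.0095), Mgll (0.039), Nr1d2 (-0.0072) and Vtn (0.020) did so. The cause of these shifts was not tested.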

Other observations

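Genes of the X chromosome were set beside the calls as a description, after the values were seen. Of 67 named genes called higher without array 8, 8 lay on chromosome X (11.9%), against 348 of 10172 named genes tested (3.42%). Of 6 named genes called lower, 1 lay there (16.7%, Tfe3). The 8 were Arxes2, Dcaf12l1, Ddx3x, Kdm6a, Nexmif, Pcdh19, Sh3bgrl and Tspan6. Ddx3y, the Y-linked partner of the RNA helicase gene Ddx3x, was the 1 called gene on chromosome Y. Without array 8, Ddx3x rose by 0.42 and Ddx3y by 0.43. The X-linked histone demethylase gene Kdm6a rose by 0.46. All animals are labelled male, and Xist, the RNA of the inactive X chromosome in females, was at 4.86 to 5.72 in every lifetime and control accumbens array.

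Further called genes, named after their values were seen, were spread over several functions. Fabp7, the fatty acid binding protein of astrocytes and radial glia, rose by 0.47 without array 8, and Qk, an RNA-binding regulator of myelin transcripts, by 0.58 and 0.51 on its 2 called features. Nalcn, the sodium leak channel of neurons, rose by 0.34, and Cntn1, an adhesion protein of axons, by 0.40. The transport genes Kif5b, a kinesin motor, and Map1b, a microtubule-associated protein, rose by 0.51 and 0.25.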
